A study of Mus musculus with 12 samples.

Results

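The genes described here are 10 core components of the G1 switch, the part of the cell cycle in which a cell decides whether to copy its DNA. They are the D-type cyclins Ccnd1, Ccnd2 and Ccnd3, their kinase partners Cdk4 and Cdk6, the inhibitors Cdkn1a, Cdkn1b, Cdkn2a and Cdkn2b, and the retinoblastoma gene Rb1. They were chosen by name as the 10 rows of these genes among the 16411 genes in the count table, and all 10 were among the 13191 genes with enough reads to test. The libraries came from 6 mammary tumors and from 6 samples of benign mammary tissue, all of them from female MMTV/neu ndl-YD5 animals of the FVB strain. Both groups carried the same transgene, an activated rat form of the HER2 receptor gene (neu, the counterpart of mouse Erbb2) under the MMTV promoter, which is active mainly in mammary epithelium. The benign tissue was taken from tumor-bearing animals, at mammary sites free of visible tumor, and the tumors and benign samples that were sequenced came from different mice. No treatment was given, and the labels state no ages.

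Total counts ranged from 5240853 to 8170687 in benign samples and from 6111393 to 8588567 in tumors. Erbb2, a check of the labels, ranged from 44.8 to 73.7 CPM (counts per 1000000 scaled counts of the library) in benign tissue and from 1989 to 16634 CPM in tumors. The benign samples were not uniform. Summed skeletal muscle markers reached 45658, 30381 and 77575 CPM in benign samples 3, 4 and 6 and at most 323 CPM in the other benign samples, and summed B and T lymphocyte markers reached 1383 CPM in benign sample 1 and at most 31.97 CPM in the other benign samples. The tissues also differed in makeup. Of the tested markers, all 6 for adipocytes, all 6 for fibroblasts, all 5 for endothelium and all 6 for basal epithelium were lower in tumors, while 6 of 7 luminal epithelial markers were higher and Krt19 was lower. Summed luminal markers ranged from 884 to 2402 CPM in benign tissue and from 2617 to 4340 CPM in tumors, and summed adipocyte markers from 8302 to 18198 CPM and from 11.4 to 104 CPM. In bulk tissue, fewer cells of a type and less RNA per cell cannot be told apart.

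As background, mitogen signaling raises D-type cyclins, which bind Cdk4 or Cdk6 and start the phosphorylation of the retinoblastoma protein. Phosphorylated retinoblastoma protein releases E2F factors, which switch on cyclin E and the genes of DNA replication. The INK4 inhibitors, which include the p16INK4a product of Cdkn2a and the p15INK4b product of Cdkn2b, bind Cdk4 and Cdk6 directly. The CIP/KIP inhibitors p21 (Cdkn1a) and p27 (Cdkn1b) act mainly on cyclin E and cyclin A complexes with Cdk2. In the mammary gland, cyclin D1 is known for its role in alveolar growth and as a target downstream of HER2 and Ras signaling.

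Cdkn2a and Cdkn2b are neighbors on chromosome 4 and moved in opposite directions in the tumors, so the sequences before their annotated starts are shown. Cdkn2a lies at chr4:89274471-89294653 on the minus strand (GRCm38) and Cdkn2b at chr4:89306299-89311039 on the same strand, with 11645 bases between them. Cdkn2a has 2 annotated transcripts with separate first exons. The distal start is the one known for p19ARF, which stabilizes p53, and the proximal start the one known for p16INK4a. Each line below holds the 250 bases before a RefSeq start (GRCm38.p6), 5′ to 3′ on the gene's own strand, with matches on either strand to the E2F motif TTTNNCGC, the cAMP response element TGACGTCA and the GC box GGGCGG in capitals.
Cdkn2a distal start, chr4:89294620-89294869, minus strand: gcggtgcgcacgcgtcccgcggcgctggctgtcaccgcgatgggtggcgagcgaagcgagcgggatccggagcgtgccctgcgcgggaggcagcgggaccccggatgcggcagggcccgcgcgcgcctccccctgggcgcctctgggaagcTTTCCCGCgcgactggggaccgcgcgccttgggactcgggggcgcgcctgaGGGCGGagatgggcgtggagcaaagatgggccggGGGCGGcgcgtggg
Cdkn2a proximal start, chr4:89282193-89282442, minus strand: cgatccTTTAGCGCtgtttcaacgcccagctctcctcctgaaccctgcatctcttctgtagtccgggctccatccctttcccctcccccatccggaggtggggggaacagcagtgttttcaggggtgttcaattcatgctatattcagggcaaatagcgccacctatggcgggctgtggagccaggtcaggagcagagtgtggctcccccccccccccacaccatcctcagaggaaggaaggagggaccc
Cdkn2b start, chr4:89311033-89311282, minus strand: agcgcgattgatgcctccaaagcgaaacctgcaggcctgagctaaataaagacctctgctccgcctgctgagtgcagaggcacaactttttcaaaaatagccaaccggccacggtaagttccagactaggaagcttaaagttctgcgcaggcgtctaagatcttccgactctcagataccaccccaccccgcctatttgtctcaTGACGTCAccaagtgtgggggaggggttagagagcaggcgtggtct

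Both Cdkn2a windows held an E2F match, which 4.28% of 32841 RefSeq windows of this length held on either strand. The Cdkn2b window held a TGACGTCA match, found in 1.55% of windows, and the distal Cdkn2a window also held 2 GC boxes, found in at least 1 copy in 32.7%. These letters are descriptions of the windows and not evidence of binding. Promoter windows were at hand for 7 of the 10 genes and not for Ccnd1, Ccnd2 or Rb1. Of the remaining windows, the Cdk4 window held 4 matches to the E-box CACGTG, present in 6.02% of windows, and the Cdk6 window held 1 E2F and 1 E-box match.

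Of the 10 genes, Ccnd2 changed most. Among the D-type cyclins, Ccnd1 was higher in tumors, Ccnd3 was lower by about the same ratio, and Ccnd2 was 23.6-fold lower. Of the 10 genes, 3 were higher in tumors (Ccnd1, Cdkn1b and Cdkn2a) and 3 were lower (Ccnd2, Ccnd3 and Cdkn2b) at an adjusted p below 0.1 (edgeR quasi-likelihood test, Benjamini-Hochberg adjustment over all genes tested). These 6 of 10 stand beside 63.0% of all genes tested that were called either way, 28.2% higher and 34.8% lower, so the number of calls was near that of genes in general. Over the 10 genes the log2 fold changes had a median of -0.27, beside -0.06 over all genes tested. Without benign samples 3, 4 and 6, Ccnd1 remained the 1 gene called higher, beside 26.7% of all genes tested in that fit, and 2 genes were called lower, Ccnd2 and Ccnd3, beside 28.7%.

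**Figure D1:**
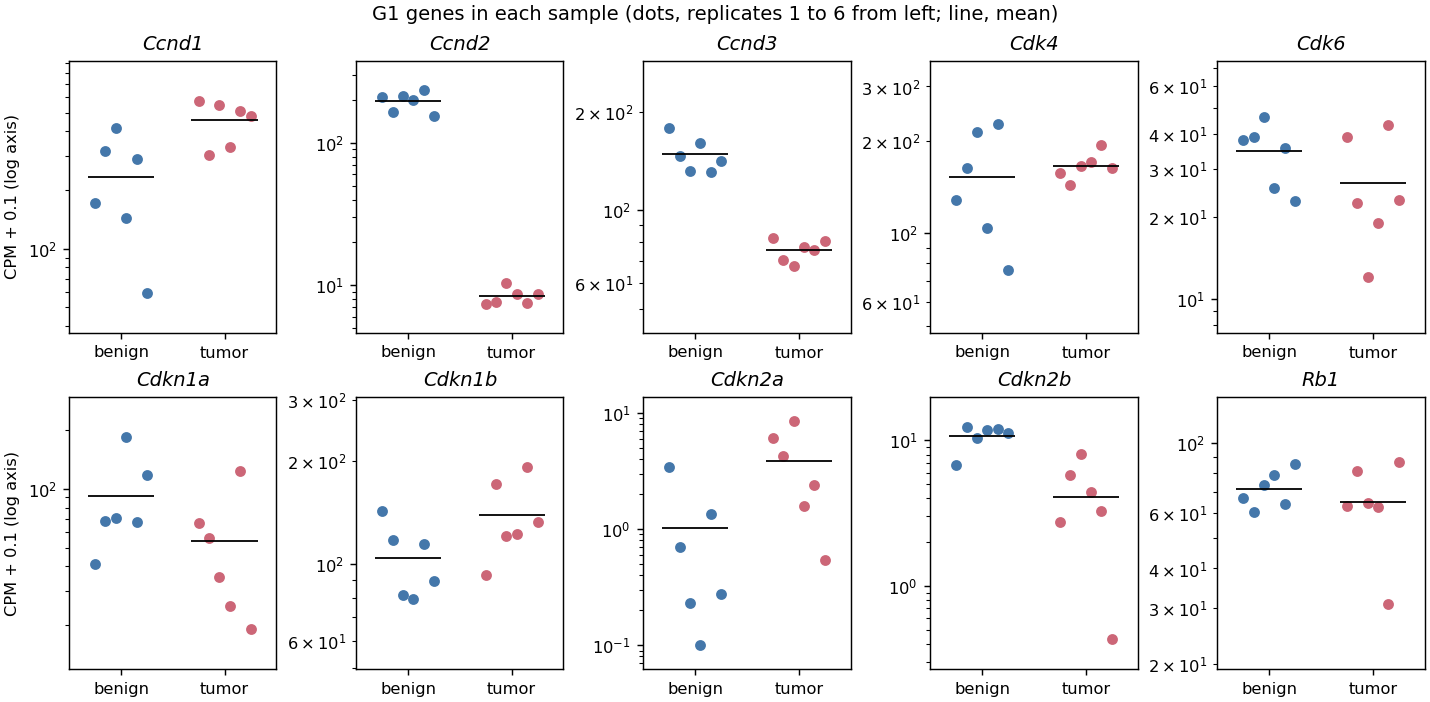
Level of each gene in each of the 12 samples, in CPM plus 0.1 on log axes whose ranges differ between panels; dots are replicates 1 to 6 from left in each group and lines are group means. Ccnd2 and Ccnd3 are the 2 genes whose groups do not overlap, and benign samples spread more widely than tumors for Ccnd1 and Cdk4.

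Ccnd1 (chr7:144929931-144939925, minus strand) encodes cyclin D1. Its level in benign samples 1 to 6 was 172, 316, 419, 144, 289 and 58.9 CPM. In tumors 1 to 6 it was 575, 304, 544, 335, 511 and 483 CPM. Tumors 1, 3, 5 and 6 were above every benign sample, while tumors 2 and 4 lay within the benign range. Mean levels of 233 ± 131 CPM (benign) and 459 ± 113 CPM (tumor; SD, n = 6 each) gave a log2 fold change of 0.98 (95% interval 0.16 to 1.79; edgeR adjusted p = 0.041). Without benign samples 1, 3, 4 and 6 it was 0.62, the lowest value of any setting tried, and it was called higher in each of the 22 alternative settings. Exons of Ccnd1 overlap those of LTO1 on the opposite strand, which was not called (log2 fold change 0.13, edgeR adjusted p = 0.36).

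Ccnd2 (chr6:127125162-127152193, minus strand) encodes cyclin D2. Benign samples 1 to 6 held 210, 164, 212, 199, 234 and 154 CPM. Tumors 1 to 6 held 7.32, 7.56, 10.2, 8.64, 7.42 and 8.56 CPM. The groups were far apart and each was tight, with all 6 tumors below the lowest benign sample. The benign mean of 196 ± 30.8 CPM was 23.6 times the tumor mean of 8.29 ± 1.11 CPM (SD, n = 6 each), a log2 fold change of -4.56 (SE 0.15; edgeR adjusted p = 6.8e-10). A log2 fold change this low or lower was found for 3.24% of genes tested. Leaving out any single sample kept the value between -4.62 and -4.46. Benign samples rich in muscle markers (154 to 212 CPM) overlapped the other benign samples (164 to 234 CPM). Adipocyte, fibroblast, endothelial and basal epithelial markers fell between the same groups, and their part in the Ccnd2 difference was not tested.

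Ccnd3 (chr17:47505051-47599691, plus strand) encodes cyclin D3. It ranged from 131 to 178 CPM in benign samples, with a median of 144 CPM, and from 67.6 to 82.2 CPM in tumors. All 6 tumors were below every benign sample. Means of 148 ± 18.3 and 75.7 ± 5.62 CPM (SD, n = 6 each) gave a log2 fold change of -0.97 (95% interval -1.19 to -0.75; edgeR adjusted p = 3.8e-06). Ccnd2 and Ccnd3 were the 2 of 10 genes with every tumor below every benign sample, a pattern shown by 21.2% of genes tested, and no member showed the opposite pattern, seen for 14.7%. Exons of Ccnd3 overlap those of Bysl on the opposite strand, and Bysl also fell (log2 fold change -1.505). The library kit keeps strand, and whether the quantification used it was not given in the sources used here.

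Because cyclins of the D type share the same kinases, their transcripts were compared per exon length, as shares of the D-cyclin total in each sample. The lengths join all annotated exons of a gene (4709 bases for Ccnd1, 9409 for Ccnd2 and 8775 for Ccnd3). The size of each share depends on that choice. Ccnd1 made up 46.1, 66.3, 70.3, 43.7, 60.6 and 27.8% of length-scaled D-cyclin counts in benign samples 1 to 6. In tumors 1 to 6 it made up 92.3, 87.9, 92.9, 88.0, 92.0 and 91.0%. All tumor shares were above all benign shares, and the tumors differed little from each other. The mean share was 52.5 ± 16.1% in benign tissue and 90.7 ± 2.21% in tumors (SD, n = 6 each), a difference of 38.2 percentage points (exact two-sided permutation test, p = 0.00216, the smallest value that 6 against 6 samples allow; 0.0108 after adjustment over 5 such tests). The Ccnd2 share went from 25.7 ± 7.45% to 0.862 ± 0.222% and the Ccnd3 share from 21.8 ± 8.99% to 8.44 ± 2.03%. The total of the D cyclins did not change detectably: their summed level, in CPM per kilobase of exon (RPKM), was 87.2 ± 28.5 in benign tissue and 107 ± 24.1 in tumors, with only tumor 1 above the benign range (exact two-sided permutation p = 0.219). Without benign samples 3, 4 and 6 the difference in the Ccnd1 share was 33.0 percentage points (exact permutation p = 0.0238).

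**Figure D2:**
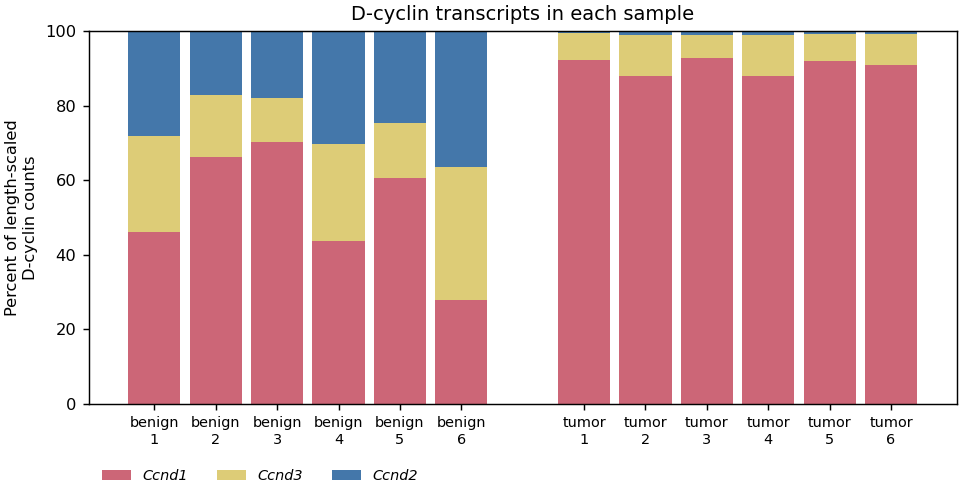
Stacked bars give the percent of length-scaled D-cyclin counts from Ccnd1, Ccnd3 and Ccnd2 in each benign sample (left) and tumor (right). Ccnd1 holds between 27.8 and 70.3% in benign samples and between 87.9 and 92.9% in tumors, where Ccnd2 is barely visible.

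The kinase partners showed no detectable change. Cdk4 (chr10:127063534-127067920, plus strand) was at 128, 163, 214, 104, 227 and 76.0 CPM in benign samples 1 to 6. In tumors 1 to 6 it was at 157, 143, 165, 170, 193 and 163 CPM. All 6 tumors lay inside the benign range, and the tumors were closer to each other than the benign samples were. Means of 152 ± 60.3 and 165 ± 16.6 CPM (SD, n = 6 each) gave a log2 fold change of 0.12 (95% interval -0.38 to 0.62; edgeR adjusted p = 0.68), and the sign turned when benign sample 6 was left out (-0.02). Cdk4 exons overlap those of Tspan31 on the opposite strand, which rose slightly (log2 fold change 0.27).

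Cdk6 (chr5:3341485-3531008, plus strand) ranged from 22.7 to 46.3 CPM in benign tissue, with a median of 36.9 CPM. Tumors 1 to 6 held 38.9, 22.4, 11.9, 18.9, 43.4 and 22.9 CPM, of which 3 were below the benign range. The log2 fold change was -0.39 (95% interval -1.02 to 0.24; edgeR adjusted p = 0.27). Per exon length, Cdk4 supplied most of the kinase transcripts in every sample, with a share of the Cdk4 and Cdk6 total between 93.5 and 96.5% in benign samples and between 94.5 and 98.3% in tumors. The difference of 1.78 percentage points passed 0.05 only before adjustment (exact two-sided permutation p = 0.0455, and 0.0938 after adjustment over 5 tests). Unadjusted, it missed 0.05 in 8 of the 12 leave-one-out permutation tests, which gave 1.40 to 2.16 points and p from 0.0173 to 0.0909. The summed RPKM of Cdk4 and Cdk6 was 49.3 ± 19.1 in benign tissue and 52.8 ± 5.53 in tumors (exact permutation p = 0.649, n = 6 each).

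**Figure D3:**
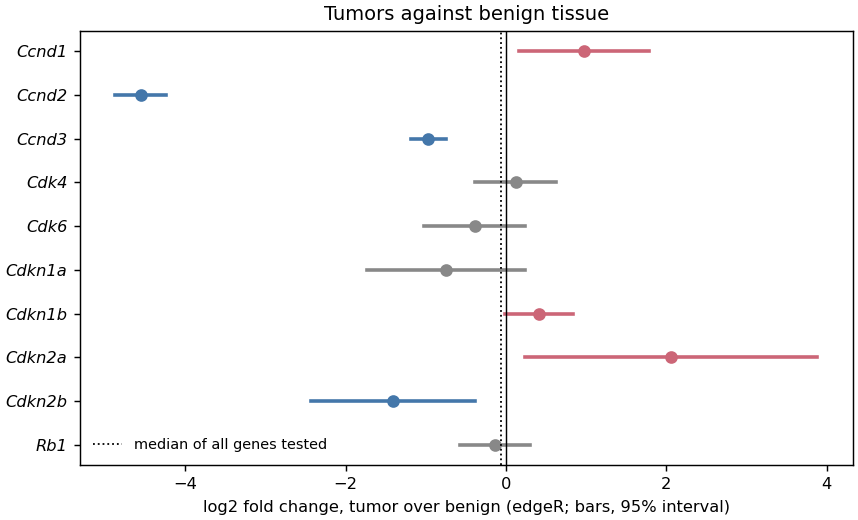
Log2 fold change of each gene, tumor over benign, with its 95% interval from edgeR; red and blue mark genes called higher and lower, gray those not called, and the dotted line the median of all genes tested (-0.06). Ccnd2 at -4.56 is the farthest from 0, and the intervals of Cdk4, Cdk6, Cdkn1a, Cdkn1b and Rb1 span 0.

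Of the CIP/KIP inhibitors, Cdkn1b was called slightly higher in tumors, with an interval that spanned 0, and Cdkn1a was not called. Cdkn1b (chr6:134920401-134925513, plus strand) was at 142, 118, 81.4, 79.3, 115 and 89.1 CPM in benign samples 1 to 6. Tumors 1 to 6 were at 92.8, 171, 121, 123, 191 and 132 CPM, and only tumors 2 and 5 were above the benign range. Means of 104 ± 24.9 and 138 ± 36.2 CPM (SD, n = 6 each) gave a log2 fold change of 0.41 (95% interval -0.01 to 0.83; edgeR adjusted p = 0.090). This call was lost in 11 of 22 alternative settings, among them the removal of benign sample 3, 4 or 6 or of tumor 2 or 5, where the value ranged from 0.34 to 0.41 and the edgeR adjusted p from 0.109 to 0.171. It was 0.19 without benign samples 3, 4 and 6 (edgeR adjusted p = 0.477) and 0.27 without 1, 3, 4 and 6 (adjusted p = 0.416).

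Cdkn1a (chr17:29090976-29100727, plus strand) is a p53 target. Benign samples 1 to 6 held 41.1, 67.9, 70.7, 183, 67.1 and 116 CPM. In tumors 1 to 6 the level was 66.9, 55.6, 35.3, 25.1, 123 and 19.1 CPM. Tumors 3, 4 and 6 were below every benign sample, whereas tumor 5 was above all but benign sample 4. The log2 fold change was -0.75 (95% interval -1.74 to 0.24; edgeR adjusted p = 0.18), and without tumor 5 it was -1.10 and passed the test (adjusted p = 0.036). Benign samples 4 and 6, the highest for Cdkn1a, also held the highest summed brown adipocyte markers (2830 and 802 CPM, at most 176 CPM in the other benign samples). Without those 2 samples the log2 fold change was -0.15 and not called, and without benign samples 3, 4 and 6 it was -0.09.

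Set against each other per exon length, with 0.5 counts added, the log2 ratio of Cdkn1a to Cdkn1b was 0.03 ± 1.04 in benign samples and -1.24 ± 0.91 in tumors (SD, n = 6 each). This difference of -1.27 missed 0.05 (exact two-sided permutation p = 0.0563; 0.0938 after adjustment over 5 tests). The groups overlapped, with the tumors between -2.43 and -0.11 and the benign samples between -1.43 and 1.56. It was -0.48 without benign samples 3, 4 and 6 (exact permutation p = 0.524).

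The INK4 genes on chromosome 4, whose upstream sequences are given above, moved apart: Cdkn2a was higher and Cdkn2b lower in tumors, from a low level in each case. Cdkn2a had 18, 5, 1, 0, 10 and 1 counts in benign samples 1 to 6 and 38, 30, 70, 11, 18 and 4 counts in tumors 1 to 6. In CPM these were 3.33, 0.60, 0.13, 0, 1.25 and 0.18 in benign tissue, and 5.92, 4.13, 8.43, 1.48, 2.30 and 0.44 in tumors. The 0 counts of benign sample 4 allow a level of up to 0.534 CPM (3 counts, counting error only). Tumors 1, 2 and 3 were above every benign sample, and tumor 6 was within the lower part of the benign range. The log2 fold change was 2.06 (SE 0.84; 95% interval 0.23 to 3.88; edgeR adjusted p = 0.053).

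Benign sample 1, which carried the high lymphocyte markers, held the highest benign Cdkn2a level, and without it the log2 fold change was 3.03. The call was lost in 5 of 21 alternative settings. Among them were the removal of tumor 3 (1.71, edgeR adjusted p = 0.115) and of benign samples 3, 4 and 6 (1.22, adjusted p = 0.267). These benign samples had 1, 0 and 1 counts. One row counts both Cdkn2a transcripts, so p16INK4a and p19ARF cannot be separated.

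Cdkn2b was at 6.67, 12.3, 10.3, 11.8, 11.9 and 11.2 CPM in benign samples 1 to 6. Tumors 1 to 6 were at 2.65, 5.64, 7.94, 4.32, 3.20 and 0.33 CPM. Only tumor 3 lay above the lowest benign sample, and tumor 6 was the lowest for both Cdkn2a and Cdkn2b. Means of 10.7 ± 2.08 and 4.01 ± 2.62 CPM (SD, n = 6 each) gave a log2 fold change of -1.41 (SE 0.47; edgeR adjusted p = 0.022). The call was lost in 2 of 21 alternative settings. Without benign samples 3, 4 and 6 the value was -1.33 and missed the threshold (edgeR adjusted p = 0.106). Per exon length, Cdkn2a was between 0 and 37.2% of the sum of both genes in benign samples and between 29.0 and 72.6% in tumors, with 5 tumors above the benign range.

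Rb1 (chr14:73183673-73325822, minus strand), the main target of the cyclin D kinases, showed no detectable change. It ranged from 60.3 to 85.2 CPM in benign samples, with a median of 70.0 CPM. The 6 tumors held, in order of number, 63.0, 81.1, 64.2, 62.4, 30.7 and 86.9 CPM. Tumor 5 was well below every other sample. The log2 fold change was -0.14 (95% interval -0.58 to 0.30; edgeR adjusted p = 0.57) and 0.07 without tumor 5. Rb1 exons overlap those of Rcbtb2 and Lpar6 on the opposite strand, and both fell (log2 fold changes -1.08 and -0.88).

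Ordered by level per exon length, Ccnd1 and Cdk4 led in both tissues. The lengths join the exons of all annotated transcripts, up to 13989 bases for Cdk6, so the order between genes depends on that choice. In benign tissue the mean RPKM was 49.5 ± 27.9 for Ccnd1, 46.8 ± 18.6 for Cdk4, 25.6 ± 14.4 for Cdkn1a, 22.9 ± 5.48 for Cdkn1b and 20.8 ± 3.28 for Ccnd2 (SD, n = 6). The ranges of these neighbors overlapped, and Ccnd1 was above Cdk4 in only 2 of 6 benign samples. Ccnd3 (16.9 ± 2.08 RPKM) overlapped Ccnd2, while Rb1 (11.9 ± 1.59), Cdkn2b (7.68 ± 1.497) and Cdk6 (2.47 ± 0.63) each lay below the gene before it in every sample without overlap. Cdkn2a was last at 0.781 ± 1.08 RPKM.

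In tumors the first steps of the order separated. Ccnd1 (97.4 ± 23.9 RPKM) lay above Cdk4 (50.9 ± 5.10) and Cdk4 above Cdkn1b (30.4 ± 7.95) in all 6 tumors, with no overlap of ranges. Cdkn1a (15.2 ± 10.7), Rb1 (10.8 ± 3.27) and Ccnd3 (8.62 ± 0.64) overlapped their neighbors in this order. Cdkn2a (3.23 ± 2.56), Cdkn2b (2.89 ± 1.88) and Cdk6 (1.89 ± 0.87) followed below Ccnd3, overlapping each other. Ccnd2, above Ccnd3 in every benign sample, had the lowest mean in tumors, at 0.881 ± 0.118 RPKM. Its range overlapped that of Cdk6, which was above it in 5 of 6 tumors, and in tumor 6 both Cdkn2a and Cdkn2b were below it.

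Around these 10 genes, 81 further genes in 8 lists were examined, of which 78 could be tested. Of these, 14 were higher, 18 lower and 46 not called, smaller shares than the 28.2% higher and 34.8% lower among all genes tested, with a median log2 fold change of -0.03 beside -0.06. In the list of cyclin E, Cdk2, the remaining inhibitors and pocket proteins, 1 of 9 was higher and 2 were lower. Both of those lower are inhibitors. Cdkn2c, which encodes the INK4 protein p18, ranged from 82.4 to 129 CPM in benign samples and from 18.6 to 30.5 CPM in tumors (log2 fold change -2.17, SE 0.14; edgeR adjusted p = 6.8e-08). Cdkn1c, which encodes the KIP protein p57, had 39.3 to 61.8 CPM in benign samples. The 6 tumors had, in order of number, 2.65, 1.65, 1.56, 11.1, 5.63 and 33.4 CPM, so that tumor 6 came close to the benign range (log2 fold change -2.43, edgeR adjusted p = 0.0062). Cdc25a, a phosphatase that activates Cdk2, was called higher (0.46; adjusted p = 0.092). The cyclin E genes Ccne1 (-0.82) and Ccne2 (-0.78), Cdk2 (0.23), Cdkn2d (-0.33), Rbl1 (0.40) and Rbl2 (0.35) were not called. Without benign sample 1, 3 of this list were higher and 3 lower, beside 31.5% and 32.4% of all genes tested in that fit. Without benign sample 6, 1 was higher and 4 were lower, beside 27% and 33.9%.

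E2F and DP factors were mixed, with 2 of 10 higher and 2 lower, beside 28.2% and 34.8% of all genes tested. Tfdp2, a dimer partner of E2F, rose by a log2 fold change of 0.63 and E2f5 by 0.35, while E2f6 (-0.91) and E2f4 (-0.67) fell. E2f1, an activator and itself an E2F target, was at -0.51 (edgeR adjusted p = 0.19). Of the 3 CDK-activating kinase genes, Mnat1 (0.38) and Cdk7 (0.23) were higher, beside 28.2% of all genes tested, and Ccnh was not called. Without benign samples 3, 4 and 6 none of the 3 was called by edgeR, beside 26.7% higher and 28.7% lower.

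Ubiquitin ligase genes that control D-cyclin or inhibitor turnover had 4 of 9 tested members higher and 0 lower, beside 28.2% and 34.8% of all genes tested. These were Cul1, the cullin scaffold of SCF ligases, at 0.91, Fbxw7, which targets cyclin E, at 0.77, Ddb1, an adaptor of cullin 4 ligases, at 0.58, and Ambra1, which targets D-type cyclins, at 0.46. All 6 tumors were above all benign samples for these 4 of the 9 tested members, beside 14.7% of all genes tested. Ambra1 ranged from 45.8 to 69.3 CPM in benign samples and from 75.0 to 83.2 CPM in tumors (edgeR adjusted p = 0.0014). Skp2, which targets p27, was at 0.16 (adjusted p = 0.78).

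**Figure D4:**
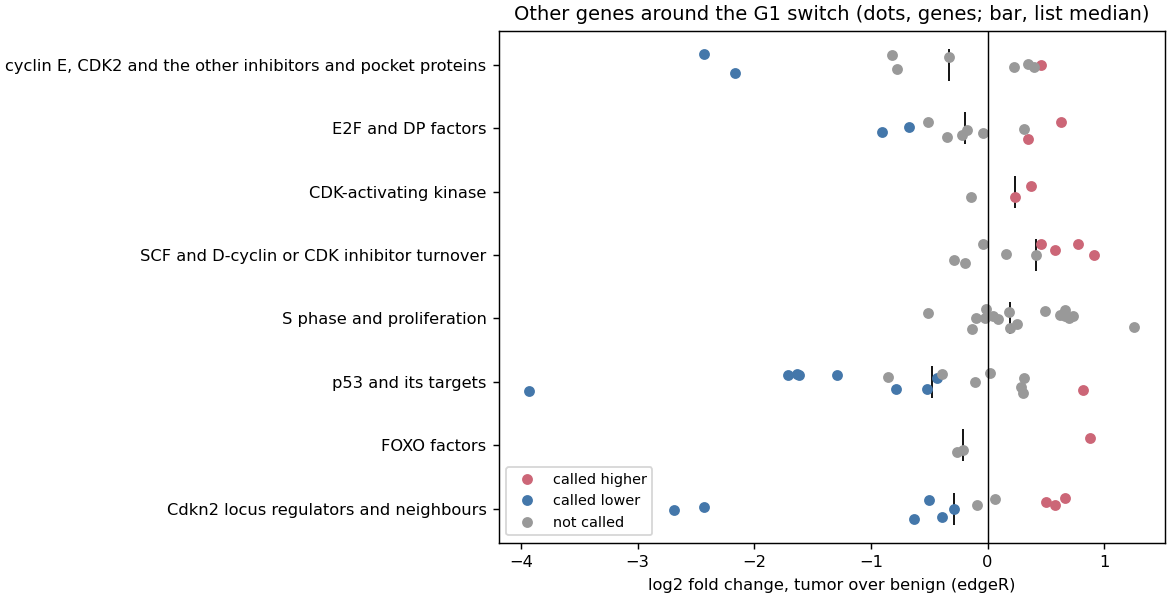
Each dot is the log2 fold change (tumor over benign, edgeR) of 1 gene in the 8 lists around the G1 switch, red where called higher, blue where called lower and gray where not called; black bars are list medians. The S phase list has no called gene, and the lowest dots are Phlda3, Tbx2, Tbx3, Cdkn1c and Cdkn2c.

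Of the p53 list, 1 of 16 genes was higher and 8 were lower, beside 28.2% and 34.8% of all genes tested, with a median log2 fold change of -0.47 beside -0.06. Phlda3, an inhibitor of Akt, had the lowest value, at 189 ± 54.0 CPM (benign) and 12.4 ± 5.07 CPM (tumor; log2 fold change -3.93; edgeR adjusted p = 2.2e-07). Trp53inp1 was the 1 higher gene (0.82). Trp53 itself (-0.39; adjusted p = 0.18) and Mdm2 (0.02; adjusted p = 0.91) were not called. FOXO factors are known to drive Cdkn1b and are restrained by Akt. Of the 3 tested, Foxo3 was higher (0.88), beside 28.2% of all genes tested, and the other 2 were not called. Foxo6, with too few reads to test, ranged from 0.926 to 8.88 CPM in benign samples and from 0 to 0.602 CPM in tumors.

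The list of Cdkn2 regulators and neighbors had 3 of 11 tested genes higher, near the 28.2% of all genes tested, and 6 lower, beside 34.8%. Tbx2 and Tbx3, T-box repressors known to act on Cdkn2a and Cdkn1a, had the lowest values of this list. Tbx2 had 25.6 ± 5.48 CPM (benign) and 3.96 ± 1.24 CPM (tumor; log2 fold change -2.69; edgeR adjusted p = 5.8e-07), and Tbx3 had 34.6 ± 9.42 and 6.38 ± 5.55 CPM (-2.44; adjusted p = 0.0010). Dmtf1, an activator of p19ARF, was the highest (0.67). Of the Polycomb genes, Bmi1 fell (-0.39) and Ezh2 rose (0.57; adjusted p = 0.063). Mtap, which lies near Cdkn2a and Cdkn2b, was at 44.7 ± 8.82 CPM (benign) and 28.9 ± 6.86 CPM (tumor; log2 fold change -0.63; adjusted p = 0.010). Tumor 5 had the lowest Mtap level, at 17.1 CPM, and tumor 6, the lowest for Cdkn2a and Cdkn2b, had 26.2 CPM.

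None of the 17 S phase and proliferation genes was called by edgeR, beside 63.0% of all genes tested. None had an unadjusted p below 0.05 in either direction, whereas DESeq2 called 2 higher, Mki67 and Tyms. Their summed level was 667, 817, 1893, 273, 1461 and 196 CPM in benign samples 1 to 6. In tumors 1 to 6 it was 1330, 1142, 1004, 1061, 1355 and 1121 CPM. Tumors were much alike, and the benign samples lay on both sides of them. Mki67, a marker of cycling cells, ranged from 6.21 to 201 CPM in benign tissue and from 168 to 311 CPM in tumors (log2 fold change 1.26; edgeR adjusted p = 0.122), with 4 tumors above the benign range. Without benign sample 3, 5 of the 17 genes were called higher, beside 27.6% of all genes tested in that fit.

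Within benign tissue, Ccnd1 and Cdk4 varied along with this sum. Benign samples 6, 4 and 1, in that order, were the lowest for the S phase sum, for Ccnd1 and for Cdk4, and samples 2, 3 and 5 were the 3 highest for each. For Cdkn1a, samples 4 and 6 were the highest and sample 1 the lowest (41.1 CPM). Muscle markers were high in samples 3, 4 and 6, summed luminal markers were lowest in samples 6 and 1 (884 and 1075 CPM), and summed adipocyte markers were highest in samples 4 and 6 (18198 and 15545 CPM). The part of these markers in the ordering was not tested. In tumors the S phase sum spanned 1004 to 1355 CPM and showed no such ordering with Ccnd1: tumor 3 had the lowest sum and the second highest Ccnd1 level.

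**Figure D5:**
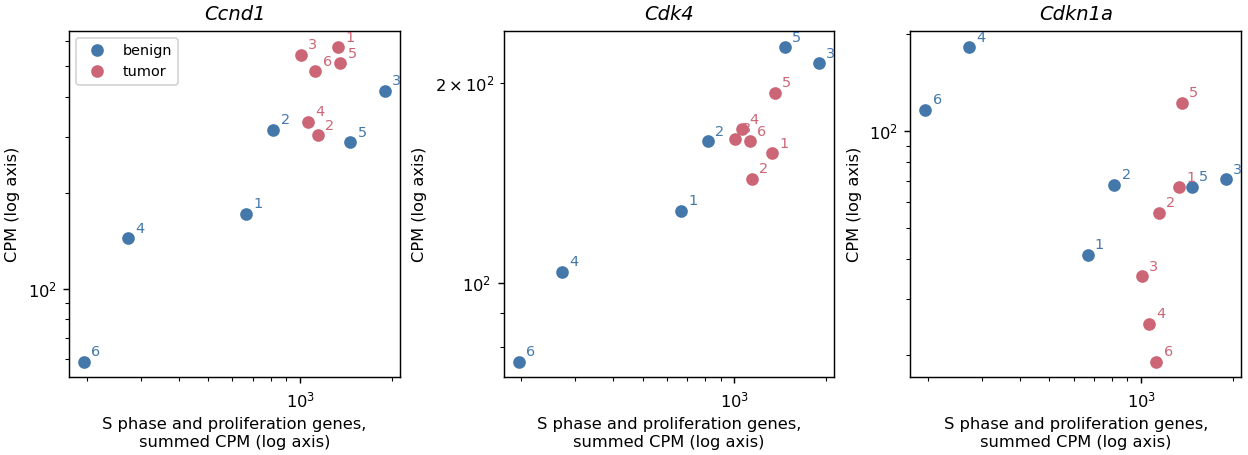
Level of Ccnd1, Cdk4 and Cdkn1a (CPM, log axis) against the summed CPM of 17 S phase and proliferation genes (log axis) in each of the 12 samples, numbered by replicate. Benign samples 6, 4 and 1 are lowest for the sum, Ccnd1 and Cdk4, and samples 4 and 6 are highest and sample 1 lowest for Cdkn1a.

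The genes whose levels varied most like Ccnd1 within the groups were ranked by Pearson's r over the 12 samples after subtracting group means, among 10811 genes with a mean of at least 10 CPM. The 5 highest were Gar1 (r = 0.953), Dyrk3 (0.939), 0610040J01Rik (0.938), Noxo1 (0.936) and Dctd (0.934). These values rest mainly on the benign samples, which varied most: r within the benign group was between 0.957 and 0.992, and within tumors between 0.425 and 0.827. The samples share their library preparation and the makeup differences given above, so the ranking is a description only.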

How the data were processed

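Total RNA of 12 frozen tissues was poly(A) enriched and sequenced from directional libraries. The authors trimmed the reads and quantified transcripts with Salmon (the submitters' notes name Trim Galore, Salmon, DESeq2 and mm10), and the deposited table holds estimated counts per gene. Versions and the annotation were not given in the sources used here. The deposited values were rounded to whole counts. No column lacked a sample.

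Genes were filtered with filterByExpr (minimum count 10, minimum total 15), scaled by TMM and tested with edgeR 4.0.16 (quasi-likelihood, tumor against benign, 6 samples each, adjusted p below 0.1) in R 4.3.3. CPM values use TMM-scaled library sizes. RPKM values use exon-union lengths of the GENCODE M21 annotation (GRCm38). Shares and ratios were tested by exact two-sided permutation over all regroupings of 6 against 6 samples. With the replicate number as a block, exact sign flips of the same-numbered differences were used. No pair of replicate libraries agreed within counting noise (chi-square per degree of freedom at least 13.0). On simulated data for this comparison, 13113 genes were tested, of which 85 were changed by a log2 of 1 and 111 by 2. Of these, 64.7% and 96.4% were recovered, and 6.90% of calls were false. In the data 63.0% of genes tested were called, a far larger share than was changed in the simulation, so these rates need not hold for the data. The common biological coefficient of variation was 0.351.

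The 10 genes and all lists were chosen with earlier results of these data known. Named genes were the 10 genes, a fixed set of further cell cycle genes (Ccne1, Ccne2, Cdk2, Cdkn1c, Cdkn2c, Cdkn2d, Rbl1, Rbl2, E2f1, Trp53, Mdm2, Mki67, Mtap, Ezh2, Bmi1, Skp2), the called genes with the highest and lowest log2 fold change of each list, and the 5 genes most like Ccnd1. Other list members were named after their values were seen. Marker lists covered luminal and basal epithelium, adipocytes, brown adipocytes, fibroblasts, endothelium, macrophages, lymphocytes and skeletal muscle. Summed macrophage markers ranged from 168 to 268 CPM in benign samples and from 86.2 to 160 CPM in tumors, summed fibroblast markers from 3281 to 7423 and from 331 to 716 CPM, summed endothelial markers from 530 to 997 and from 78.6 to 98.1 CPM, and summed basal markers from 680 to 1509 and from 21.4 to 103 CPM. In tumors, summed lymphocyte markers ranged from 13.8 to 33.3 CPM, muscle markers from 0.843 to 120 CPM and brown adipocyte markers from 3.30 to 19.9 CPM. The levels of some single markers are not reported here. Alternatives were DESeq2 1.42.0, other scalings and filters, a stricter threshold, a replicate block and the removal of samples; 2 of the removals, of benign samples 1, 3, 4 and 6 and of 4 and 6, were added after seeing the data.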

Additional observations from a re-analysis of the deposited data

Results flagged for a closer look

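In 26 groups of 6 samples, the gap between the highest or lowest sample and its nearest neighbor was set against the range of the group (Dixon's 95% critical value); chance alone passes about 1 in 20 groups. In 2 of them a sample stood apart, and both were benign sample 1, the sample with high lymphocyte markers (1383 CPM). Its Cdkn2a level of 3.33 CPM was the highest of the benign group, with the next at 1.25 CPM and a gap of 0.626 of the range. Its Cdkn2b level of 6.67 CPM was the lowest of the benign group, with the next at 10.3 CPM and a gap of 0.643 of the range. The part of the lymphocyte content in either value was not tested.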

How the results depend on the processing

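Ccnd1, Ccnd2 and Ccnd3 kept their direction and call in all 22 alternatives, with log2 fold changes of 0.62 to 1.22, -4.62 to -4.46 and -1.01 to -0.86. Of the 10 genes, 1 was called higher at an adjusted p below 0.05, beside 24.8% of all genes tested. That number was also 1 without benign samples 3, 4 and 6, beside 26.7%. It stayed 1 without 1, 3, 4 and 6 (beside 23.5%) and without 4 and 6 (beside 28.3%). Leaving out single samples gave 2 to 3 higher, beside 26.6 to 31.5% of all genes, and 3 to 4 lower, beside 31.5 to 34.3%. The sign of Cdk4 turned without benign sample 6 (-0.017), without benign samples 3, 4 and 6 (-0.026), 1, 3, 4 and 6 (-0.21) and 4 and 6 (-0.098), and that of Rb1 without tumor 5 (0.068) and without the same sets of benign samples (0.070, 0.081 and 0.024). Neither gene was called in any of these. Cdkn2a and Cdkn2b could not be tested where every sample had to hold at least 10 counts. Leaving out single samples gave -0.017 to 0.27 for Cdk4 and -0.18 to 0.068 for Rb1.

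Replicate numbers did not pair the samples, which came from different mice: same-numbered samples correlated between -0.124 and 0.103 in their deviations from group means. With the number as a replicate block, Cdkn1b was not called (0.41, edgeR adjusted p = 0.104). The difference in Cdk4 share was 1.78 (exact sign-flip test of the same-numbered differences, unadjusted p = 0.0938). In the block fit 3 S phase genes and 1 CDK-activating kinase gene were called higher, and 26.3% of all genes were higher and 32.1% lower.

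Of 176 list counts under alternatives, 153 stayed within 1.5 times. These counts join genes called higher and lower unless a direction is given. The CDK-activating kinase count was 1 at 0.05, under upper-quartile scaling and without benign samples 4 and 6, and 0 without 3, 4 and 6 or 1, 3, 4 and 6. Under DESeq2, 2 S phase genes were higher, beside 30.6% of all genes tested. Without benign samples 3, 4 and 6, 2 were higher and 1 lower, beside 26.7% and 28.7%. In each added removal 1 was higher and 1 lower. The shares of all genes were 23.5% and 25.8% without 1, 3, 4 and 6, and 28.3% and 31% without 4 and 6. With at least 1 count in total, 1 of 4 FOXO factors was higher and 1 lower, beside 27.9% and 33.4% of all genes tested. Without benign samples 3, 4 and 6, 2 of 3 were higher, beside 26.7%. Without benign samples 1, 3, 4 and 6 the cyclin E list had 2 higher and 4 lower, beside 23.5% and 25.8% of all genes tested. Without 4 and 6 it had 1 higher and 4 lower, beside 28.3% and 31%. The Cdkn2 regulator list had 2 higher and 3 lower without 1, 3, 4 and 6. Leaving out single samples gave 2 to 6 for the cyclin E list, 1 to 2 for the CDK-activating kinase, 0 to 5 for S phase genes, 1.40 to 2.16 for the Cdk4 share and -1.56 to -0.96 for the Cdkn1a to Cdkn1b ratio, which passed 0.05 without benign sample 1 (exact permutation p = 0.026) and without tumor 1 or 5 (p = 0.0433). The Cdk4 share difference was 1.54 without benign samples 3, 4 and 6 (exact permutation p = 0.167) and 1.47 without 4 and 6 (p = 0.143). The cause of these changes was not tested. Depth limits Cdkn2a most, with 0 to 18 counts per benign sample.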
